A study of Mus musculus with 3 samples.

Results

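Resident macrophages of the infarcted mouse heart were picked out here as cells with transcripts of Lyve1 and Folr2 and with almost none of Saa3 and Arg1, and 116 of 25640 cells met that rule. The data come from CD45-selected cells of hearts after permanent ligation, of mice called F7fl/fl CX3CR1Cre or, without the Cre, F7fl/fl WT, taken at times that differed after it, in a study of coagulation factor VII (F7) made by macrophages. The F7 alleles are floxed in all mice, and the Cre follows Cx3cr1, the fractalkine receptor gene that many macrophages use. Cells of 18 biological replicates, each marked by a sample tag and called a heart tag here, were pooled into 3 libraries (7, 5 and 6 tags) and read on the BD Rhapsody platform as deduplicated molecules per cell and gene. Genotype and time point of single tags were not used here, so neither was compared, and every test set cells against other cells of the same tags.

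Macrophages that carry LYVE1 and the folate receptor FOLR2 are known as the long-lived tissue macrophages of the heart. They sit along vessels, take up dying cells and debris, and renew themselves locally with little help from blood monocytes. TIMD4, a receptor for phosphatidylserine on dying cells, marks those of early origin, whereas CCR2, the receptor for the monocyte attractant CCL2, marks macrophages that came from blood monocytes. CBR2 is a carbonyl reductase that is found with LYVE1 and FOLR2 in resident macrophages of several mouse tissues.

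A resident cell had at least 2 molecules each of Lyve1 and Folr2, at least 0.1% of its molecules from C1qa, C1qb and C1qc, and less than 0.02% from Saa3 and Arg1. It had at most 1 molecule of the cavity-macrophage genes Prg4 and Gata6, less than 1% of its molecules from the MHC class II genes H2-Aa, H2-Ab1, H2-Eb1 and Cd74, at most 2 of Fabp4 and at most 2 of the cycling genes Top2a and Mki67. Cells with Cd3e, Cd3d, Cd3g or Cd79a were left out. These genes chose the cells and are given as description only, and genes that go together with them are not independent of the choice. The Lyve1 gate kept the most cells out: 1589 cells passed every other gate, and 1551 of them had Folr2 but no Lyve1. The Saa3 and Arg1 gate alone kept out 202 cells, called Saa3-high below. Of the resident cells, 81 had neither Saa3 nor Arg1, 17 were above 0 and under 0.01%, and 18 lay between 0.01 and 0.02%. Just outside that gate, 9 cells lay between 0.02 and 0.04%, while 193 were at or above 0.04%.

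For comparison, 3 other classes were used. Saa3-high cells (202) met all gates but that on Saa3 and Arg1. Lyve1-low Folr2-low macrophages (2960) had at most 1 molecule of each of these genes and met the other gates. MHC class II macrophages (1817) were also low in Lyve1 and Folr2 and had 1% or more of their molecules from the MHC class II genes. Resident cells had a median of 13495.5 molecules, Saa3-high cells 29737.5, Lyve1-low Folr2-low cells 14896.5 and MHC class II cells 12398.

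The label was checked against its markers. Cbr2, which the rule did not use, was found in 114 of the 116 cells, and Timd4 in 70. All 7 macrophage markers were present, led by Lyz2 with 25710 molecules. Markers of mast cells or basophils (Cpa3, Mcpt8, Ms4a2, Kit and Fcer1a) were all at 0. Of the endothelial list, Tie1, Cldn5 and Esam were at 0, and 7 of 10 genes gave 34 molecules in all. The monocyte list summed to 270 CPM (molecules of a gene per 1000000 molecules, over all cells of the class), of which Ccr2 was 272 of 497 molecules. The fibroblast list, in a gate that selects CD45, gave 207 CPM in resident cells and ran from 114 to 1332 CPM over 5 tags. Its part in the results was not tested. The T or NK cell list gave 210 molecules from 11 resident cells, 111 of them of Gzma, the gene of a killer-cell protease. It stood at 114 CPM in resident cells (0 to 152 CPM over 5 tags), against 12.8 CPM in Saa3-high, 34.6 CPM in Lyve1-low Folr2-low and 42.8 CPM in MHC class II cells, and its part was not tested. Of the B cell list, Ighm alone gave 377 of 397 molecules, and Pax5 was at 0.

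Resident cells were few in every tag, and their share differed widely between tags. They made up 0.452% of all cells (exact 95% interval 0.374 to 0.542), with 40, 37 and 39 cells in libraries 1, 2 and 3. The median tag held 0.302%, the lowest 0 and the highest 2.38%. The highest share was that of library 2 tag 5, with 17 of 713 cells, and library 3 tag 11 had 0 of 845, which allows a share of up to 0.355%, taking 3 counts of the total as the limit. The median was 0.200% over the 7 tags of library 1, 0.307% over the 5 of library 2 and 0.665% over the 6 of library 3, and 0.610% without library 1. With Lyve1 and Folr2 at 1 molecule or more, the median tag held 0.460% and the lowest 0.118%. Intervals and limits cover counting error only.

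**Figure D1:**
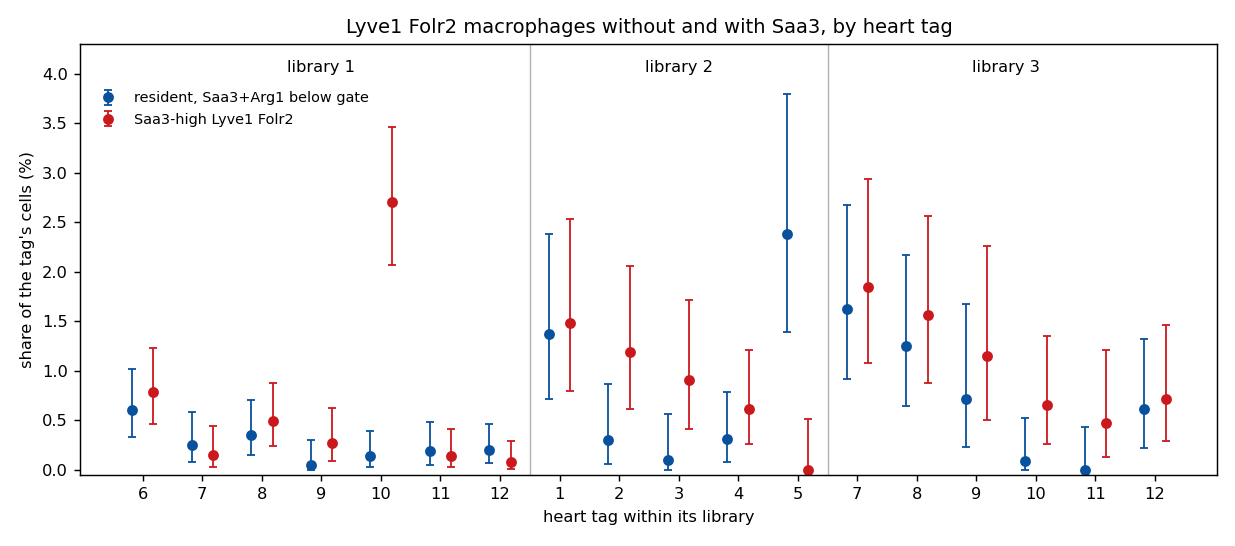
Share of each heart tag's cells (%) that were resident macrophages (blue) or Saa3-high Lyve1 Folr2 macrophages (red), with exact 95% intervals, for 18 tags in 3 libraries. Library 2 tag 5 stood at 2.38% resident and 0% Saa3-high cells, and library 1 tag 10 at 0.135% resident and 2.70% Saa3-high cells. The exact upper bounds drawn at 0% are 0.436% for resident cells of library 3 tag 11 and 0.516% for Saa3-high cells of library 2 tag 5.

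The 2 kinds of Lyve1 Folr2 macrophage, without and with Saa3, were mixed in very different proportions. Without Saa3 were 17 of 17 such cells in library 2 tag 5, but 3 of 63 in library 1 tag 10 (4.76%, exact 95% interval 0.993 to 13.3). Resident cells outnumbered Saa3-high cells in 4 tags, and Saa3-high cells were the more numerous in 14. Over all tags, 36.5% of Lyve1 Folr2 macrophages were without Saa3. Of library 2 tag 5, 0 of 713 cells were Saa3-high, which allows up to 0.421%. Which of these hearts had Cre, or how long after ligation each was taken, cannot be told from the tags.

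Timd4 was found in 70 of 116 resident cells (60.3%, exact 95% interval 50.8 to 69.3), at a median of 3 molecules in the cells that had it. It was found in 21 of 202 Saa3-high cells (10.4%), 9 of 2960 Lyve1-low Folr2-low cells (0.304%) and 10 of 1817 MHC class II cells (0.550%). The share in resident cells was alike across libraries, at 62.5%, 62.2% and 56.4%. In lymphoid cells, which should lack it, the share was 0.685% of 292 cells at a median of 7175 molecules. With every cell thinned to 5000 molecules, an average of 42.1% of resident cells per tag still had Timd4, against 0% of Lyve1-low Folr2-low cells, over 10 tags with at least 5 resident cells. It was higher in 9 of the 10 tags (exact sign-flip permutation test over tags, two-sided, adjusted p = 0.00586 over 9 such comparisons). Against Saa3-high cells the averages were 45.2% and 7.33% (7 of 7 tags higher, exact adjusted p = 0.0201). Library 1 tag 7 was the exception, with Timd4 in 1 of 5 resident cells and in none after thinning.

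In resident cells of the 5 tags with 10 or more such cells, Timd4 stood at 222, 193, 253, 260 and 114 CPM in library 1 tag 6, library 2 tags 1 and 5 and library 3 tags 7 and 8. In library 3 tag 8, 1 of 12 cells held 20 of the 30 molecules. In Lyve1-low Folr2-low cells of the same tags, 1 molecule was found in all, and the groups did not overlap. In Saa3-high cells of the 4 tags that also had 10 of them, Timd4 stood at 9.92, 111, 43.6 and 54.6 CPM, against which resident cells of those tags were higher in every one. The difference was 2.05 ± 0.44 (log2, SE; edgeR adjusted p = 0.012), and it passed the threshold no longer without library 1 tag 6 or without library 3 tag 7 (highest adjusted p = 0.062).

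Cbr2 was the most uniform of the 3 genes described within the class. It was found in 114 of 116 resident cells (98.3%), 186 of 202 Saa3-high cells (92.1%), 859 of 2960 Lyve1-low Folr2-low cells (29.0%) and 298 of 1817 MHC class II cells (16.4%), and the background in lymphoid cells was 5.48%. Resident cells held 1693, 2778, 1948, 2831 and 1381 CPM in the 5 tags, in the order above. Lyve1-low Folr2-low cells of those tags held 74.3, 43.5, 22.0, 28.1 and 45.7 CPM. The levels did not overlap, and the difference was 5.63 ± 0.29 (log2, SE; edgeR adjusted p = 6.14e-09). Saa3-high cells held 558, 509, 688 and 1389 CPM in their 4 tags, so resident cells were higher in 3 of 4 and level with them in library 3 tag 8. That difference of 1.55 ± 0.34 (edgeR adjusted p = 0.0122) was lost without any of library 1 tag 6, library 2 tag 1 or library 3 tag 7. With cells thinned to 5000 molecules, Cbr2 was found in an average of 97.6% of resident cells and 74.3% of Saa3-high cells, higher in 6 of 7 tags, which did not pass (exact sign-flip permutation test, adjusted p = 0.0527).

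RefSeq promoter windows on GRCm38.p6 are shown for Timd4 and Cbr2, 2 genes known to mark resident macrophages that the rule did not use. They cover the 250 bases before the start site. Capitals mark the half-site of the transcription factor MAF (TGCTGA, or TCAGCA on the other strand) and the core bound by the macrophage factor PU.1 (GAGGAA, or TTCCTC on the other strand), searched on both strands. The Timd4 window lies at chr11:46810549-46810798 on the plus strand and held 2 MAF half-sites. The Cbr2 window lies at chr11:120732022-120732271 on the minus strand and held 1 PU.1 core. The Cd163 window held neither.
Timd4: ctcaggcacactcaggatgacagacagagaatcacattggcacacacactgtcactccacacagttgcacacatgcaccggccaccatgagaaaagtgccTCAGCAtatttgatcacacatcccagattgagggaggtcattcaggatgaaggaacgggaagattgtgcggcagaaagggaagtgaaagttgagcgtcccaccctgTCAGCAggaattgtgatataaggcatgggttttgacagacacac
Cbr2: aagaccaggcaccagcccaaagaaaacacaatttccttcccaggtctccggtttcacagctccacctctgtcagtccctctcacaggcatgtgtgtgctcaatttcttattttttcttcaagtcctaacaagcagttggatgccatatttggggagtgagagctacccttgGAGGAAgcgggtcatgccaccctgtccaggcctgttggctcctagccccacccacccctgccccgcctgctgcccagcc
Of 32851 such windows, 16.1% held the MAF half-site and 23.3% the PU.1 core. Either match is a description of these letters only, and binding was not tested.

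Ccr2 was found in 20 of 116 resident cells (17.2%, exact 95% interval 10.9 to 25.4), and 7 of those had 5 or more molecules. The share was 45.0% of Saa3-high cells, 55.5% of Lyve1-low Folr2-low cells and 87.8% of MHC class II cells. Fibroblasts, which should lack it, gave 13.6% of only 44 cells at a median of 14037.5 molecules (exact 95% interval 5.17 to 27.4), so a share of 17.2% could not be told from that background. The 3 resident cells with the top 2% of doublet scores all had 5 or more Ccr2 molecules, and without them 17 of 113 cells (15.0%) had Ccr2, 4 of them 5 or more. With cells thinned to 5000 molecules, the average was 14% of resident cells per tag and 86.2% of MHC class II cells, lower in 10 of 10 tags (exact sign-flip permutation test, adjusted p = 0.00586). Against Lyve1-low Folr2-low cells it was 14% and 48.0% (lower in 9 of 10 tags, exact adjusted p = 0.00586). Against Saa3-high cells it was 13.3% and 24.3%, lower in 4 of 7 tags (exact adjusted p = 0.219). Lyve1-low Folr2-low cells themselves differed by library, with Ccr2 in 79.4% of them in library 1, 41.7% in library 2 and 37.4% in library 3.

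**Figure D2:**
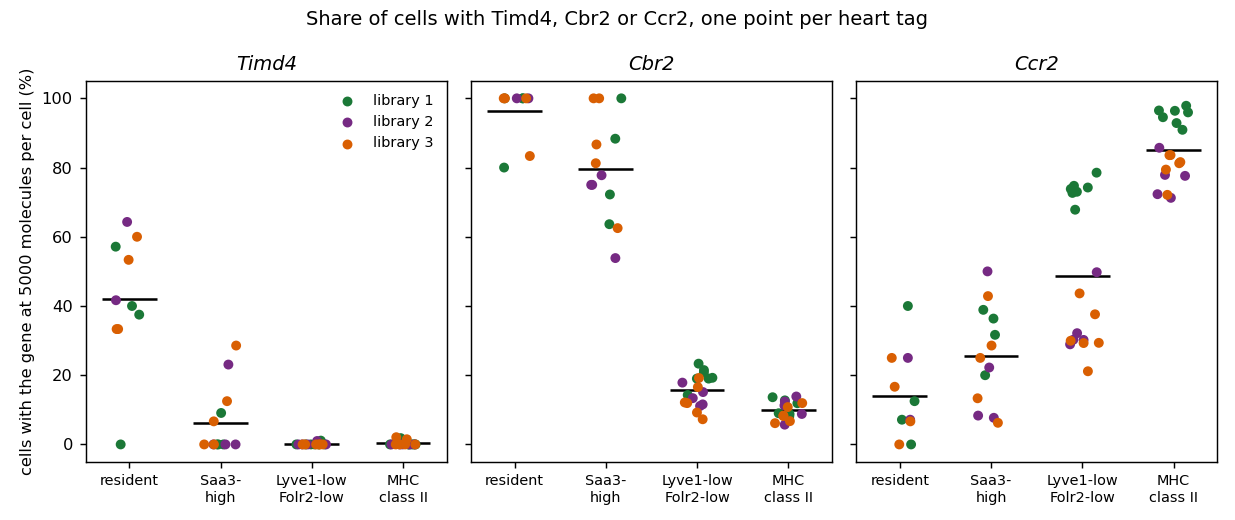
Share of cells (%) with at least 1 molecule of Timd4, Cbr2 or Ccr2 after thinning to 5000 molecules per cell, 1 point per heart tag with at least 5 cells of the class, coloured by library, with the mean over tags as a line. The means of resident cells were highest for Timd4 and Cbr2 and lowest for Ccr2, but their points overlapped those of Saa3-high cells for Cbr2 and Ccr2, where neither difference passed, library 1 tag 7 was at 0% for Timd4, and Ccr2 in Lyve1-low Folr2-low cells lay apart by library.

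By level, Ccr2 in resident cells stood at 12.3, 50.1, 12.6, 6.51 and 167 CPM in the 5 tags. Lyve1-low Folr2-low cells stood at 967, 292, 206, 487 and 157 CPM. Resident cells were lower in 4 of 5 tags, while in library 3 tag 8 both classes were near the same level. There 33 of 44 resident Ccr2 molecules came from 1 cell with a top doublet score. The difference was -2.97 ± 0.65 (log2, SE; edgeR adjusted p = 0.00678), and the call was lost without library 2 and within library 3 alone. The Ccr2 molecules of resident cells were concentrated: the 7 cells with 5 or more held 250 of 272. These 7 cells held Lyve1 at 183 CPM, Timd4 at 15.2 CPM and the monocyte gene Ly6c2 at 193 CPM. Of the 38 Ly6c2 molecules, 33 came from 1 cell, the same cell that held all 3 Timd4 molecules and had a top doublet score. The 96 cells without Ccr2 held Lyve1 at 1231 CPM, Timd4 at 177 CPM and Ly6c2 at 1.45 CPM. The 7 cells came from 6 tags and had a median of 27393 molecules, against 12790 in cells without Ccr2. No test was made, since these cells were chosen by Ccr2.

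Both Timd4 and Ccr2 were found in 10 resident cells, Timd4 alone in 60, Ccr2 alone in 10 and neither in 36. Of the 10 cells with both, 9 had 1 to 4 Ccr2 molecules, which at these shares cannot be told from background. Pooled over tags, cells with Timd4 held Lyve1 at 1709 CPM and Folr2 at 1531 CPM. Cells without Timd4 held Lyve1 at 579 CPM and Folr2 at 902 CPM. Both genes belong to the rule, and these pooled levels were not tested. Of the 7 cells with 5 or more Ccr2 molecules, which held Lyve1 at 183 CPM, 1 had Timd4. Over the 4 tags with 5 or more cells of each kind (library 2 tags 1 and 5, library 3 tags 7 and 8), 1545 genes were tested. Between Timd4-positive and Timd4-negative cells, 0 were called by edgeR (adjusted p under 0.05, 0.0% called), 65 at an unadjusted p under 0.05. Timd4 itself, which split the cells and was left out of that count, had 137 molecules against 0 and did not pass (edgeR adjusted p = 0.0564). The absence of calls thus cannot show that cells with and without Timd4 are alike. DESeq2 called 2 genes, the chemokine gene Ccl12 as higher and Cd93, a surface glycoprotein gene, as lower in Timd4-positive cells, named after their values were seen. Cbr2 averaged 2488 ± 685 CPM in Timd4-positive cells and 1856 ± 601 CPM in Timd4-negative cells (SD, n = 4 tags), and Cd163 averaged 1144 ± 287 CPM in Timd4-positive cells and 1019 ± 628 CPM in Timd4-negative cells. Neither passed the test (edgeR adjusted p = 0.963 for both).

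The Saa3-high cells share Lyve1 and Folr2 with resident cells and differ by gate only in Saa3 and Arg1, and the rest of their transcriptome differed from resident cells in 385 of 4821 genes tested (7.99% called by edgeR at an adjusted p under 0.05, with 195 or 4.04% higher and 190 or 3.94% lower in resident cells). Resident cells were higher in genes of the classic tissue macrophage, among them Cd163 and Mrc1, and lower in a set of wound and clotting genes. Of the resident macrophage list, 19 of 37 genes tested were higher and 1 was lower, with a median difference of 0.94 (log2), against 0.01 for all genes tested. The list of recruited monocyte genes had 0 higher and 11 of 18 lower (median -1.58), and the acute-phase and wound list, beside the gate genes, 0 higher and 5 of 8 lower (median -1.60). All 3 lists were drawn up with earlier results of these data known, and Saa3 and Arg1 belong to the processes named by the last. All comparisons below use the same resident cells, so their results are not independent of each other.

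Among receptors, Cd163, the scavenger of haemoglobin and haptoglobin, stood at 1283, 1167, 1438 and 812 CPM in resident cells of the 4 tags, against 101, 148, 291 and 397 CPM in Saa3-high cells. Every resident value lay above every Saa3-high value (2.49 ± 0.35, edgeR adjusted p = 0.00108), but the call was lost within library 1 alone. Mgl2, a galactose-binding lectin of tissue macrophages, stood at 102, 673, 866 and 269 CPM in resident cells and at 0, 29.1, 9.69 and 10.9 CPM in Saa3-high cells (5.29 ± 0.37, edgeR adjusted p = 7.68e-06). The mannose receptor gene Mrc1 was higher by 1.87 ± 0.27 (adjusted p = 0.00114), a call lost within library 3 alone. Of the scavenger and lectin receptor list, 9 of 23 genes were higher and 1 was lower. The one lower was Olr1, a receptor for oxidised lipoprotein, at an average of 3.79 ± 7.59 CPM in resident cells and 146 ± 93.5 CPM in Saa3-high cells (SD, n = 4 tags). The call of Olr1 was lost within library 1 alone.

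Among secreted factors, Igf1, a growth factor that supports heart muscle, was higher at 956, 759, 729 and 952 CPM in resident cells, against 302, 178, 187 and 402 CPM in Saa3-high cells (1.75 ± 0.21, edgeR adjusted p = 0.000438). Vegfa, the vessel growth factor, was lower at 6.17, 7.16, 0 and 22.8 CPM in resident cells, against 403, 64.0, 172 and 373 CPM in Saa3-high cells (-4.80 ± 0.43, adjusted p = 4.28e-05). Slpi, an inhibitor of leukocyte proteases, was lower at 6.17, 0, 19.5 and 19 CPM in resident cells, against 375, 268, 1296 and 1041 CPM in Saa3-high cells (-5.95 ± 0.32, adjusted p = 1.1e-06). None of these groups overlapped. The matrix protein gene Fn1 was lower (-4.41 ± 0.48), and so was Thbs1, the gene of a matrix protein that activates latent TGF-beta (-4.58 ± 0.51). The cytokine genes Il6 and Il1a were lower too, at averages of 6.35 ± 6.57 and 106 ± 135 CPM in resident cells and 198 ± 175 and 1068 ± 681 CPM in Saa3-high cells.

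Of the coagulation and fibrinolysis list, 2 of 16 genes tested were higher in resident cells (F13a1 and Gas6) and 6 were lower, among them F10, F5 and Tgm2, the gene of a tissue transglutaminase. F13a1 codes for the subunit of factor XIII that cross-links fibrin. It stood at 3913, 3214, 3990 and 2147 CPM in resident cells and at 1115, 498, 831 and 1472 CPM in Saa3-high cells, with no overlap (1.85 ± 0.30, edgeR adjusted p = 0.00234). F10, the gene of factor X, which factor VII with tissue factor activates, had 0 molecules in resident cells of these tags, against 117, 66.9, 119 and 116 CPM in Saa3-high cells. Taken as 3 counts over the 4 tags, the limit makes it at least 31.5-fold lower in resident cells. Over all 18 tags, 2 of 116 resident cells had F10, against 132 of 202 Saa3-high cells. F5, the gene of factor V, the cofactor of factor X, stood at 3.08, 7.16, 0 and 0 CPM in resident cells and at 97.2, 204, 133 and 203 CPM in Saa3-high cells (-5.81 ± 0.53, adjusted p = 4.28e-05).

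F7, the gene the floxed allele targets, was found in 2 of 116 resident cells and 42 of 202 Saa3-high cells, at 1.08 CPM (exact 95% interval 0.131 to 3.92) and 15.0 CPM. In the 4 tags resident cells had 0, 7.16, 0 and 0 CPM, and Saa3-high cells 19.8, 8.73, 7.27 and 21.8 CPM. F3, the gene of tissue factor, stood at 3.08, 0, 0 and 0 CPM in resident cells and at 248, 8.73, 29.1 and 26.2 CPM in Saa3-high cells. Both genes had too few molecules to be tested. Cx3cr1, whose promoter drives the Cre, averaged 141 ± 87.7 CPM in resident cells and 60.8 ± 33.5 CPM in Saa3-high cells (SD, n = 4 tags; edgeR adjusted p = 0.181). Deletion of F7 and lower use of the gene cannot be told apart here.

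**Figure D3:**
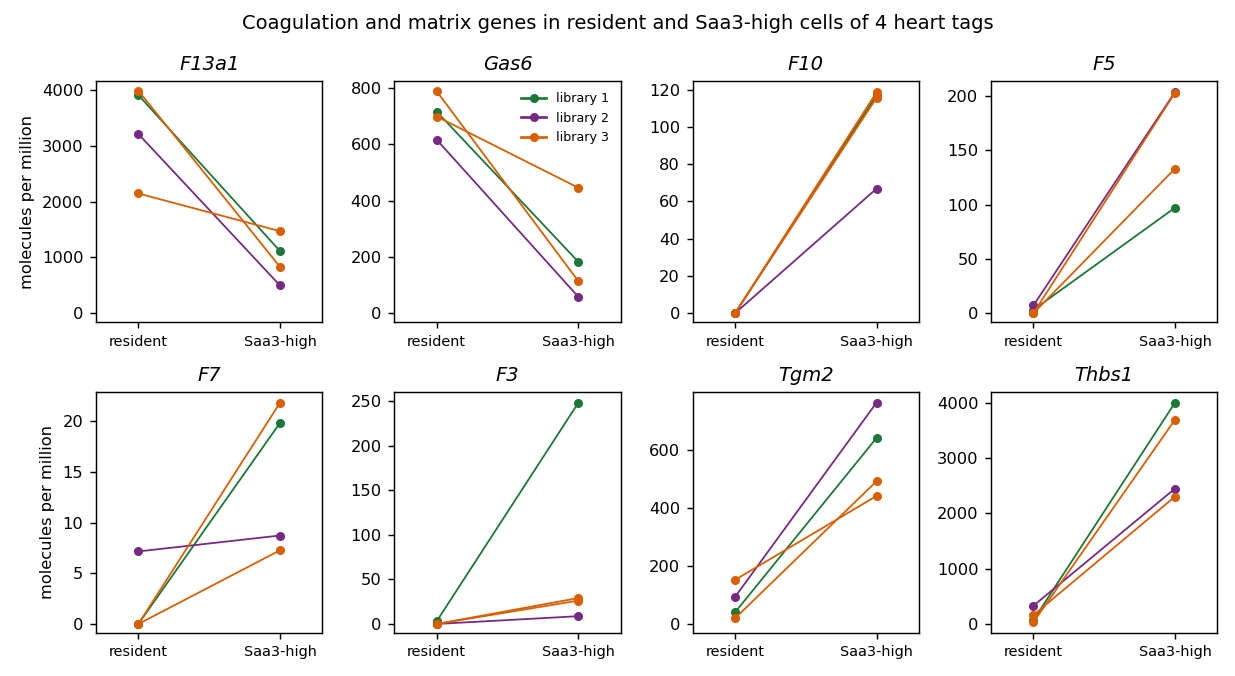
CPM of 8 coagulation and matrix genes in resident cells (left) and Saa3-high cells (right) of the same 4 heart tags, joined by lines and coloured by library. F13a1 and Gas6 lay higher in resident cells of every tag, and F10 was at 0 in resident cells and between 66.9 and 119 in Saa3-high cells.

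Genes outside the lists with the largest calls included Ighm, which codes for the IgM heavy chain and is best known from B cells. It stood at 182, 301, 247 and 182 CPM in resident cells, against 3.97, 11.6, 36.3 and 24.0 CPM in Saa3-high cells (3.64 ± 0.39, edgeR adjusted p = 0.000158). It was found in 85 of 116 resident cells, and in 42.6% of Lyve1-low Folr2-low and 68.1% of MHC class II cells. Pla2g2d, a secreted phospholipase gene, St3gal6, a sialic acid transferase gene, and Ephx1, an epoxide hydrolase gene, were also higher, by 5.83, 3.86 and 3.19 on the log2 scale. Cd24a, Prtn3, the gene of a neutrophil serine protease, and Trem1, an amplifier of myeloid inflammation, were lower in resident cells, at -6.85, -5.73 and -5.43. The neutrophil marker list moved with them, at 69.4 CPM in resident cells (39.0 to 150 CPM over 5 tags, with Retnlg and G0s2 at 0) and 277 CPM in Saa3-high cells (95 to 790 CPM over 7 tags). The monocyte list stood at 270 CPM in resident cells and 738 CPM in Saa3-high cells. The part of either list in the lower genes was not tested. Of the immediate early and dissociation stress list, 9 of 22 genes were higher in resident cells and 1 was lower. The heat shock gene Hspa1b stood at 453, 1117, 2493 and 1449 CPM in resident cells, against 17.9, 210, 111 and 546 CPM in Saa3-high cells, and the groups overlapped. Reads of it and of Hspa1a, a near-identical copy, may be shared, so both are uncertain. The part of these genes, and of the lower molecule number of resident cells, in the other results was not tested, but the calls with cells thinned to equal depth are given with the alternatives.

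Against Lyve1-low Folr2-low macrophages, resident cells differed in 721 of 6280 genes (11.5% called by edgeR at an adjusted p under 0.05, with 382 or 6.08% higher and 339 or 5.4% lower) over 5 tags. They were higher in scavenger and chemokine genes and lower in the genes of lipid-laden macrophages. The resident macrophage list had 26 of 36 genes higher and 1 lower, Cxcr4 (median 1.21, against -0.01 for all genes tested). The list of lipid-associated macrophages had 1 gene higher, the fatty acid transporter gene Cd36, and 19 of 24 lower (median -0.99). Scavenger and lectin receptors had 12 of 21 higher and 1 lower (median 1.19), chemokines 8 of 15 higher and 2 lower (median 1.39), and complement genes 6 of 13 higher and 2 lower (median 0.13). Against Saa3-high cells, by contrast, the chemokine list had 4 of 15 higher and 5 lower (median 0.14). The lipid-associated list had 2 of 22 higher and 3 lower there (median -0.15).

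Cd163 stood at 1283, 1167, 740, 1438 and 812 CPM in resident cells, against 15.2, 9.94, 4.06, 6.12 and 5.71 CPM in Lyve1-low Folr2-low cells (7.03 ± 0.22, edgeR adjusted p = 1.46e-11). F13a1 stood at 3913, 3214, 3143, 3990 and 2147 CPM in resident cells, against 399, 127, 122, 153 and 184 CPM in Lyve1-low Folr2-low cells (4.17 ± 0.22, adjusted p = 8.51e-09). Neither gene overlapped between classes. Mrc1 was higher by 2.22 ± 0.17, and Gas6, a bridge between dying cells and their receptors, by 2.23 ± 0.19. The list of genes for uptake of dying cells, to which Gas6 belongs, had 5 of 21 higher and 8 lower (median -0.43). Vsig4, a complement receptor, averaged 471 ± 374 CPM in resident cells and 1.34 ± 0.749 CPM in Lyve1-low Folr2-low cells (SD, n = 5 tags), and Fcna, a ficolin of the lectin pathway, 498 ± 302 CPM in resident cells and 7.59 ± 4.33 CPM in Lyve1-low Folr2-low cells. Neither was called against Saa3-high cells, nor were Ednrb and Ccl24, named below. Vsig4 stood at 47.3, 360 and 252 CPM in Saa3-high cells of libraries 1, 2 and 3. Resident cells of these libraries held 543, 140 and 643 CPM. C6, the gene of a late complement component, averaged 80.6 ± 63.6 CPM in resident cells, with 2 molecules in Lyve1-low Folr2-low cells of all 5 tags.

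Also higher were the endothelin receptor gene Ednrb (4.96 ± 0.25), the collectin gene Colec12 (5.12 ± 0.37), the growth factor gene Bmp2 (3.68 ± 0.26) and, outside the lists, Fgfr1, a receptor for fibroblast growth factors (5.56 ± 0.57). Of chemokines, Ccl24 and Ccl6 were higher by 4.46 and 2.67 on the log2 scale, and Cxcl10 and Cxcl16 were lower, at -2.17 and -1.43. Against Saa3-high cells, Ccl6 was called the other way, as lower in resident cells, and Cxcl16 as higher. Gpnmb, a membrane glycoprotein of lipid-laden macrophages, stood at 27.8, 50.1, 75.9, 71.6 and 493 CPM in resident cells, against 887, 1759, 2197, 1441 and 2373 CPM in Lyve1-low Folr2-low cells (-4.04 ± 0.34, edgeR adjusted p = 1.74e-06). The groups did not overlap, although library 3 tag 8 came nearest, where 1 cell with a top doublet score held 101 of 130 molecules. Spp1, which codes for osteopontin, averaged 229 ± 209 CPM in resident cells and 1705 ± 528 CPM in Lyve1-low Folr2-low cells, and the lipid-binding Fabp5 185 ± 223 CPM in resident cells and 1004 ± 220 CPM in Lyve1-low Folr2-low cells. Il7r, the interleukin 7 receptor, fell to 2.13 ± 3.33 CPM in resident cells, against 138 ± 28.7 CPM in Lyve1-low Folr2-low cells.

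Igf1 did not pass this test (0.34 ± 0.27, edgeR adjusted p = 0.517). It stood at 956, 759, 424, 729 and 952 CPM in resident cells, against 312, 714, 828, 521 and 773 CPM in Lyve1-low Folr2-low cells, and the groups overlapped. Tgfb1, the gene of the repair cytokine, did not pass against any class, with differences of 0.65, 0.34 and 0.33 against Saa3-high, Lyve1-low Folr2-low and MHC class II cells (adjusted p = 0.281, 0.571 and 0.431). Cx3cr1 was lower (-1.04 ± 0.23, edgeR adjusted p = 0.00667), at 149 ± 77.6 CPM in resident cells and 294 ± 98.6 CPM in Lyve1-low Folr2-low cells, and this call was lost without library 3, within library 2 or library 3 alone, under stricter gates and without the tag as a block.

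**Figure D4:**
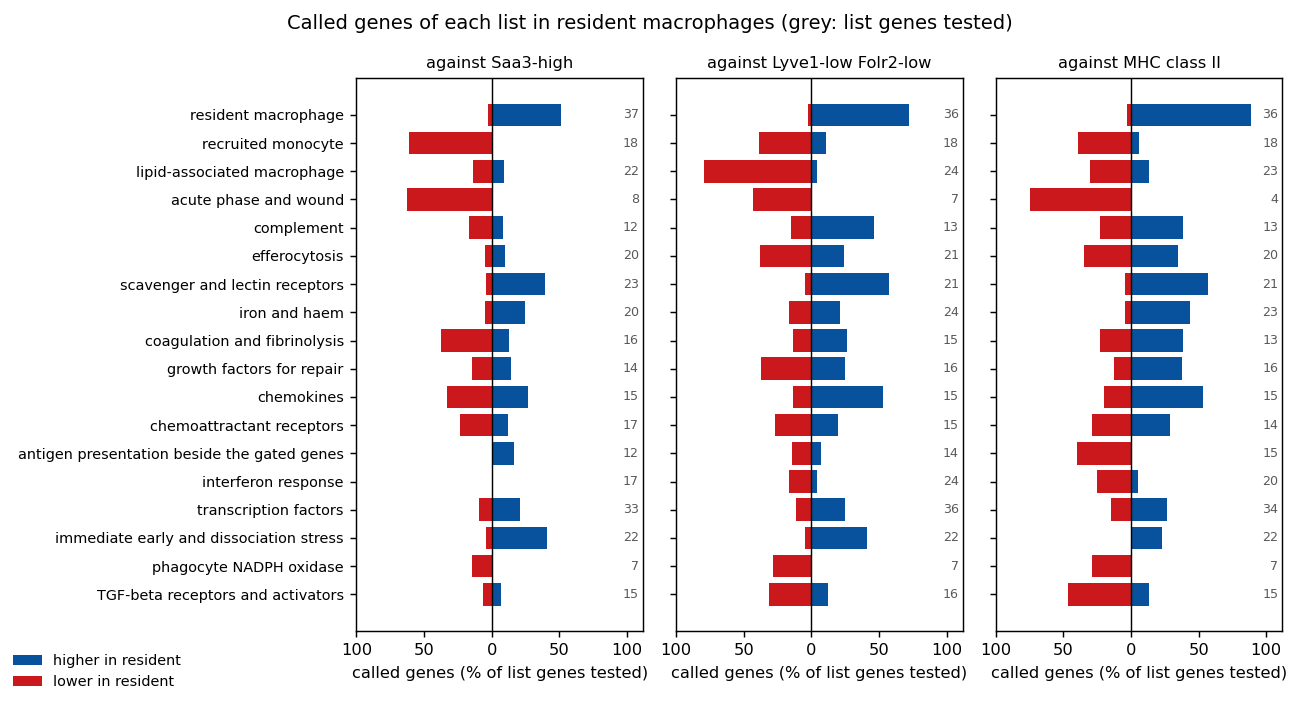
Percentage of the tested genes of each list that were called higher (blue, to the right) or lower (red, to the left) in resident macrophages by edgeR, against Saa3-high (4 tags), Lyve1-low Folr2-low (5 tags) and MHC class II macrophages (5 tags), with the number of genes tested in grey. Resident macrophage genes were called higher against each class, and lipid-associated genes were called lower for 19 of 24 genes against Lyve1-low Folr2-low macrophages.

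Against MHC class II macrophages, resident cells differed in 949 of 5378 genes (17.6% called by edgeR at an adjusted p under 0.05, with 479 or 8.91% higher and 470 or 8.74% lower). Of the resident macrophage list, 32 of 36 genes were higher and 1 was lower (median 2.03, against -0.01 for all genes tested). Iron and haem genes had 10 of 23 higher, among them Cd163 and Cp, whose product ceruloplasmin oxidises iron, and 1 lower, the ferritin gene Fth1, whose pseudogenes make its count uncertain. Vsig4 was higher by 9.45 ± 0.51 and Ednrb by 6.31 ± 0.39. F13a1 was higher by 5.19 ± 0.23, at 3281 ± 743 CPM in resident cells and 95.1 ± 52.0 CPM in MHC class II cells (SD, n = 5 tags).

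The antigen presentation list, beside the gate genes, had 0 higher and 6 of 15 lower. Ciita, the master regulator of MHC class II genes, had 0, 0, 12.6, 0 and 0 CPM in resident cells, against 92 ± 13.2 CPM in MHC class II cells (-5.48 ± 0.58, edgeR adjusted p = 8.7e-06), and H2-DMb1, which loads peptides, was lower too (-3.38 ± 0.23). These genes go with the gate on MHC class II. Napsa, an aspartic protease gene, had 0 molecules in resident cells and 310 in MHC class II cells, at least 17.9-fold lower over the 5 tags. Ccr2 was lower (-4.86 ± 0.47), at 12.3, 50.1, 12.6, 6.51 and 167 CPM in resident cells, against 1709, 1084, 1091, 1380 and 1074 CPM in MHC class II cells. The integrin gene Itgax was lower (-4.62 ± 0.42), and so was Il1b, the interleukin 1 beta gene (-3.50 ± 0.49). Igf1 was higher by 1.90 ± 0.27 (adjusted p = 0.000157), at 764 ± 218 CPM in resident cells and 207 ± 65.9 CPM in MHC class II cells.

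Of the transcription factor list, 9 of 34 genes were higher and 5 lower against MHC class II cells, 9 of 36 higher and 4 lower against Lyve1-low Folr2-low cells, and 7 of 33 higher and 3 lower against Saa3-high cells. Of all genes tested, 8.91% were higher and 8.74% lower against MHC class II cells, 6.08% and 5.4% against Lyve1-low Folr2-low cells, and 4.04% and 3.94% against Saa3-high cells. Maf, a factor of tissue macrophages, stood at 2001, 1002, 1221, 1341 and 1047 CPM in resident cells, against 401, 230, 307, 288 and 353 CPM in MHC class II cells (2.02 ± 0.15, edgeR adjusted p = 2.89e-07). Hes1, a target of Notch signals, was higher by 2.21, 2.07 and 1.63 against MHC class II, Lyve1-low Folr2-low and Saa3-high cells. Of the list of TGF-beta receptors and activators, 2 of 15 genes were higher and 7 lower against MHC class II cells, 2 of 16 higher and 5 lower against Lyve1-low Folr2-low cells, and 1 of 15 higher and 1 lower against Saa3-high cells. The receptor gene Tgfbr2 was higher by 0.98, 0.89 and 0.79 in the same order. Smad7, an inhibitor of TGF-beta signals, was lower at -2.20 ± 0.42 against MHC class II cells and -2.04 ± 0.41 against Lyve1-low Folr2-low cells (log2, SE; edgeR adjusted p = 0.00182 and 0.0036).

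Within the resident class, some genes were steady from tag to tag and others were not. Over 231 list genes with at least 50 CPM in the median of the 5 tags, the ratio of the highest to the lowest tag had a median of 2.48. It was under 2 for 68 genes and 10 or more for 14. Among the steady ones, Mrc1 stood at 2929, 2527, 2087, 2415 and 1847 CPM. The chemokine gene Ccl8, by contrast, stood at 2695, 165, 696, 84.6 and 1468 CPM, and Vsig4 at 731, 115, 31.6, 618 and 857 CPM, with Vsig4 molecules in 34 of all 116 cells. The iron exporter gene Slc40a1 stood at 191, 93.1, 6.32, 19.5 and 106 CPM. In library 2 tag 5, the tag with the most resident cells and no Saa3-high ones, both Vsig4 and Slc40a1 were lowest.

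Retnla, a secreted product of alternatively activated macrophages, stood at 24.7, 1138, 190, 351 and 0 CPM in the 5 tags, and its 252 molecules came from 8 of 116 cells. Id3, a transcription regulator, stood at 58.6, 172, 196, 0 and 56.9 CPM, and Plbd1, a phospholipase-like gene, at 3.08, 57.3, 108, 58.6 and 19 CPM. Each tag rests on 12 to 17 resident cells, so few cells decide such values. Within library 3, Ccl8 stood at 84.6 CPM in tag 7 and 1468 CPM in tag 8, and within library 2, Retnla stood at 1138 CPM in tag 1 and 190 CPM in tag 5. These differences were thus also present within a library.

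**Figure D5:**
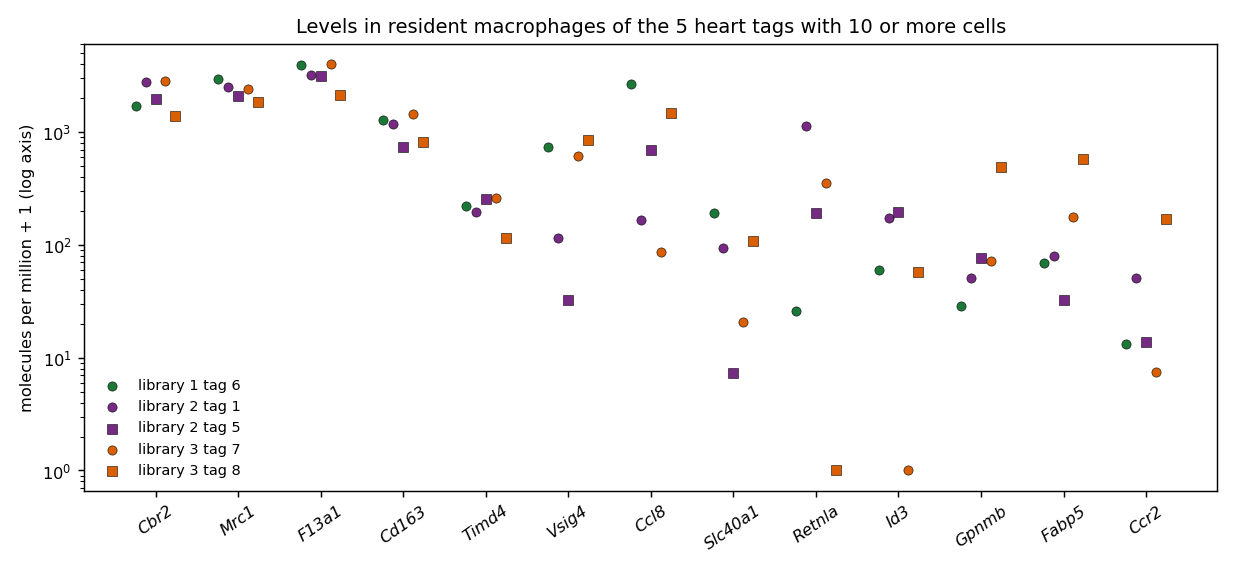
CPM (plus 1, log axis) of 13 genes in resident macrophages, 1 point for each of the 5 heart tags with 10 or more of these cells. Cbr2, Mrc1 and F13a1 lay close together over the tags, while Vsig4, Ccl8 and Retnla spread over more than a factor of 10 and library 3 tag 8 lay highest for Gpnmb, Fabp5 and Ccr2.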

How the data were processed

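Per the labels' protocols, hearts were tagged before pooling, so each tag is a biological replicate. Per the submitters' processing notes, reads were processed with the BD Rhapsody pipeline (version 2.0b1 for library 1, 1.10 for libraries 2 and 3) on the genome GRCm38, with annotation M19 of GENCODE. Each deposited table holds counts of molecules, one row a cell and one column a gene, with identifiers corrected for errors, per the file headers. Per the file headers, library 1 used another bead version and did not exclude intronic reads (not stated for libraries 2 and 3), so library and bead version cannot be told apart. Cells with under 200 genes (122 of 25762) were left out. A tag held 10152522 to 62344127 molecules, at medians of 11612 to 20282 per cell. Libraries 1 and 2 shared 4 cell indices, libraries 1 and 3 shared 3, libraries 2 and 3 shared 0, and none had identical profiles.

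Counts were summed per tag and class and tested with edgeR 4.0.16 in R 4.3.3 (quasi-likelihood, TMM, tag as block because both classes come from the same heart, Benjamini-Hochberg over all genes tested). Rule genes were left out of counts of calls, as was Timd4 where it split the cells. The planned minimum of 20 cells left no tag, so a minimum of 10, also planned, was used (5 for Timd4), and the share test used tags with 5 cells and all sign flips. Cells were also thinned to 5000 molecules, which left out 3 resident cells. Scrublet, run through scanpy 1.11.5, called 0, 1 and 0 doublets, so its threshold did not work, and cells with the top 2% of scores were left out as an alternative. DESeq2 1.42.0 was another alternative. On simulated data, edgeR recovered 91% of 200 genes changed 4-fold among 6290 (Lyve1-low Folr2-low), 84.5% among 4832 (Saa3-high), 86% among 5387 (MHC class II) and 79% among 1554 (Timd4). False calls were 6, 10, 7 and 7 in that order. The simulated counts had the same spread setting for every gene and no differences between tags beyond their totals. These shares therefore do not give the share that would be found in the real data. The members and lists were chosen with earlier results of these data known. Named genes were a fixed set (such as Timd4, Cbr2, Ccr2 and F7), the called genes with the largest differences in the lists (8 each way) and outside them (6 each way), with the same sign in at least 90% of tags and at least 50 CPM in the higher class, 2 examples of a list each way, and 6 list genes for variation between tags. Mrc1 as a steady gene was named after its values were seen. Some items are not reported here.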

Additional observations from a re-analysis of the deposited data

Results flagged for a closer look

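In resident cells of library 3 tag 8, 4 genes lay far above the other 4 tags with at least 10 such cells, by the gap to the nearest tag over the whole range. Gpnmb stood at 493 CPM there, against 75.9 CPM in the nearest tag. Fabp5 stood at 573 CPM, against 176 CPM in the nearest. Ccr2 stood at 167 CPM, against 50.1 CPM, and Sema4d, a semaphorin gene, at 91.0 CPM, against 26 CPM. Of 37 genes looked at in this way, 4 (10.8%) were set apart, and this tag had 12 resident cells. Chance sets apart about 1 in 20 groups of normally distributed values, which CPM from so few cells need not be. The 4 genes are also not independent of each other. Much of these values came from 1 of the 12 cells, which had a top doublet score and held 101 of 130 Gpnmb, 98 of 151 Fabp5, 33 of 44 Ccr2 and 14 of 24 Sema4d molecules.

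Over 298 list genes with at least 20 molecules, looked at after the data were seen, 40 (13.4%) had a tag set apart in this way. Of the 40, 17 were highest in library 3 tag 8, against 7 in library 1 tag 6, 5 in library 2 tag 1, 3 in library 2 tag 5 and 2 in library 3 tag 7, and 6 were lowest in a tag. Gpnmb, Fabp5 and Ccr2, already flagged above, are counted again among the 40 and the 17. The scavenger receptor gene Marco stood at 1517 CPM in library 3 tag 8 and at 0 CPM in the other 4 tags, and its 400 molecules came from 1 cell, which had no top doublet score. The same cell held 1210 of 1506 molecules of the haem oxygenase gene Hmox1 and 63 of 64 of Cd5l, the gene of a secreted scavenger protein. Hmox1 stood at 5713 CPM there, against 1276 CPM in the nearest tag, and Cd5l at 243 CPM, against 12.6 CPM.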

How the results depend on the processing

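Among the single genes recomputed under the alternatives, no called difference reversed; Ccr2 against Saa3-high cells, which was not called, ran from -2.47 to 1.14 on the log2 scale. The 721 genes of 6280 called against Lyve1-low Folr2-low cells became 1124 of 6303 with tags of at least 3 cells, 389 of 3016 with cells thinned to 5000 molecules, 445 within library 2 and 363 within library 3, 330 to 605 without a library and 508 to 665 without a tag. The 385 of 4821 called against Saa3-high cells became 621 of 14958 with no filter on low counts, 737 of 2834 and 620 of 3944 with tags of at least 3 and 5 cells, 214 of 1295 thinned, 213 within library 1 and 255 within library 3. They ranged from 162 to 464 without a tag and from 162 to 445 without a library; without library 1 tag 6, the only tag of its library in that test, 162 were called, and without library 3 tag 7, 246. The 949 of 5378 called against MHC class II cells became 1441 of 5207 with tags of at least 3 cells, 544 of 2699 thinned and 523 within library 2, 571 to 764 without a library and 764 to 831 without a tag. For Timd4-positive against Timd4-negative cells, where 0 were called, DESeq2 called 2, no filter 20 and Lyve1 and Folr2 at 1 or more 11, and 0 to 2 were called without a tag and 0 to 1 without a library. The alternatives of single libraries and of 3 or 5 cells were chosen after seeing the data. After thinning, fewer genes were tested and fewer were called against each other class, while the share of tested genes that was called rose. The cause of these changes was not tested.

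Without the tag as a replicate block, 650, 286, 810 and 0 genes were called against Lyve1-low Folr2-low, Saa3-high and MHC class II cells and by Timd4. Among single genes, 2117 results with alternatives stayed as in the main fit, whether called or not called, 18 gained a call and 36 lost one. In the thinned shares, no comparison passed without library 1 or without library 3 (exact sign-flip permutation test, lowest adjusted p = 0.05625 and 0.0703). At most 6 tags were left then, where the smallest possible unadjusted p was 0.03125. Of 6 tags, Ccr2 was lower than in Lyve1-low Folr2-low cells in 5 without library 1, and Timd4 was higher in 5 without library 3. The differences in percentage points, without a library, ran from 39.3 to 47.7, 34.7 to 41.1 and 38.9 to 47.1 for Timd4 (against Lyve1-low Folr2-low, Saa3-high and MHC class II cells), from 78.7 to 83.1 and 85.7 to 86.3 for Cbr2 (against the first and last of these), and from -42.8 to -18.7 and -75.4 to -66.3 for Ccr2. Cbr2 against Saa3-high cells passed when thinned to 2000 molecules, at 47.8 points. A minimum of 20 or 40 cells could not be fitted, nor could the Timd4 comparison with Lyve1 and Folr2 at 3 or more or with stricter gates. At 12 to 17 resident cells per tag, genes of low level cannot be compared.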
